A study of Mus musculus with 8 samples.

Results

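The genes described here are 10 members of the CC chemokine system that draw monocytes and other leukocytes into tissue. They comprise 8 ligand genes (Ccl2, Ccl3, Ccl4, Ccl5, Ccl6, Ccl7, Ccl9 and Ccl12) and 2 receptor genes (Ccr1 and Ccr2). They were chosen by gene symbol from the 24584 genes in the deposited tables, for their known role, and all 10 passed the filter on low counts. Bulk RNA-seq was carried out on lung tissue of 8 male ICR mice, an outbred stock given as wild type in the labels, aged 6 to 8 weeks in the study. The LPS group (n = 4) received an intraperitoneal injection of 5 mg/kg lipopolysaccharide from Escherichia coli, a cell wall component that drives a sepsis-like lung injury. The LPS + Tan group (n = 4) received the same LPS, with an intraperitoneal injection of 50 mg/kg tangeretin, a citrus flavonoid, 30 min earlier. Lung tissue was taken 12 h after LPS, so both groups carry the LPS challenge, and untreated lungs were not analysed here. The study used 6 mice per group, of which 4 were sequenced, and the sources do not say how these were picked.

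CC chemokines are small secreted proteins named for a pair of adjacent cysteines, and they act on G protein-coupled receptors of leukocytes. Ccl2, Ccl7 and Ccl12 are monocyte chemoattractant proteins that bind Ccr2, the receptor by which inflammatory monocytes leave the bone marrow and enter inflamed tissue. Ccl3, Ccl4 and Ccl5 are inflammatory chemokines made by macrophages, neutrophils and lymphocytes. Ccl3 and Ccl5 are ligands of Ccr1. Ccl6 and Ccl9 are rodent chemokines of myeloid cells that act through Ccr1, a receptor of monocytes, macrophages and neutrophils. In an injured lung, these signals govern the arrival of monocytes that become macrophages.

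The ligand genes lie on chromosome 11 in 2 clusters (GRCm38, GENCODE M21 annotation). The monocyte chemoattractant genes are close together on the plus strand, with Ccl2 at chr11:82035571-82037453, Ccl7 at chr11:82045712-82047525 and Ccl12 at chr11:82101845-82103400. Ccl5 (chr11:83525778-83530518), Ccl9 (chr11:83572919-83578636), Ccl6 (chr11:83587882-83593087) and Ccl3 (chr11:83647844-83649355) follow on the minus strand, and Ccl4 (chr11:83662584-83664683) lies next to Ccl3 on the plus strand. The receptor genes are on chromosome 9, Ccr1 at chr9:123962124-123968692 on the minus strand and Ccr2 at chr9:124101950-124113557 on the plus strand. Ccl2 is overlapped on the opposite strand by Gm17268, which was not used here, and Ccl6 by E230016K23Rik, which had at most 6 reads in a mouse.

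RefSeq promoter sequences (GRCm38.p6) were at hand for 6 members: Ccl3, Ccl6, Ccl9, Ccl12, Ccr1 and Ccr2. To show which textbook inflammatory and myeloid motifs stand next to the start sites, the 150 bases upstream of the start are given for 1 member of each ligand subgroup and for Ccr2, 5′ to 3′ on the gene's strand. The start is that of the promoter entry, and for Ccr2 it lies inside the annotated gene span, so that its window is upstream of an internal start and not of the gene's outermost one. Capitals mark motif matches on either strand.

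Ccl9 (chr11:83578637-83578786, minus strand): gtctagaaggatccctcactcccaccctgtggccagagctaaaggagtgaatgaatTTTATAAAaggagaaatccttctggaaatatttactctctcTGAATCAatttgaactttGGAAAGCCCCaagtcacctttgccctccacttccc
Ccl12 (chr11:82101695-82101844, plus strand): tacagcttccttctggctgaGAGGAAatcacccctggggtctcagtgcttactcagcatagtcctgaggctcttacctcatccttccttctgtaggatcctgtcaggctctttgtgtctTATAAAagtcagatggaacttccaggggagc
Ccl3 (chr11:83649379-83649528, minus strand): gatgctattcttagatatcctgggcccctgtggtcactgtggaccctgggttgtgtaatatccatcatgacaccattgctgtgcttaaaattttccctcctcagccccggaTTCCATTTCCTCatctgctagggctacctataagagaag
Ccr2 (chr9:124102033-124102182, plus strand): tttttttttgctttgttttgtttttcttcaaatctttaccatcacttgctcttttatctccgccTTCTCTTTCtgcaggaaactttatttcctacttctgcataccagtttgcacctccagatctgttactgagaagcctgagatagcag

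The motifs searched were the NF-kB consensus, the AP-1 motif TGANTCA, the interferon-type motif GAAANNGAA, the PU.1 core GAGGAA and the TATA box TATAAA. In the Ccl9 promoter, the NF-kB consensus matched at -35 to -26, AP-1 at -53 to -47 and TATAAA on the gene's strand at -92 to -87 from the start site. The last of these overlaps a match on the opposite strand at -94 to -89, and a further opposite-strand match lies outside the printed bases at -224 to -219. In the Ccl12 promoter, TATAAA matched at -31 to -26 and GAGGAA at -130 to -125. The capitals in Ccl3 cover GAAANNGAA at -39 to -31 and an overlapping GAGGAA at -33 to -28, both on the opposite strand, and in Ccr2 GAAANNGAA matched on the opposite strand at -86 to -78. In the whole windows of 250 bases before to 50 after the start, Ccr1 held GAGGAA alone and Ccl6 held none of these letters. Of 32851 promoters of this length, 4.51% held the NF-kB consensus, 7.81% AP-1, 8.56% GAAANNGAA, 28.3% GAGGAA and 13.6% TATAAA, so single matches are common and are given as a description only.

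The labelled tissue was borne out by 12 lung epithelium markers, led by the club cell gene Scgb1a1 (mean 31365 FPKM), which summed to between 33349 and 48127 FPKM per mouse, whereas liver and stomach markers, led by Cyp2e1 (2.91 FPKM), summed to between 2.24 and 6.85 FPKM. FPKM is a read count scaled for transcript length and sequencing depth, so that levels can be set against each other between genes. Between 38895654 and 39931970 reads were counted per mouse. Changes between groups are given in CPM, the read count scaled to library size, here with edgeR's TMM factors (0.959 to 1.05). Replicates are separate mice, listed as replicates 1 to 4.

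No difference between LPS + Tan and LPS mice was detected for any of the 10 members. With edgeR's quasi-likelihood test, 0 of 10 had an unadjusted p below 0.05, against 5.12% of the 15706 genes tested (2.25% lower). None met the study's thresholds of an unadjusted p below 0.05 with an absolute log2 fold change above 1, which 0.649% of all genes met. After Benjamini-Hochberg adjustment over all genes, 0 members and 0% of genes passed. Over all genes, 35 passed in DESeq2, 23 in edgeR's likelihood ratio test and 0 in limma-voom, none of them a member. DESeq2, edgeR's likelihood ratio test and limma-voom also called 0 members at an unadjusted p below 0.05. The groups overlapped for every member, as for all but 2.73% of genes. The estimates of 9 of 10 members were below 0, with a median log2 fold change of -0.20, against 48.2% of all genes below 0 and a median of 0.01. The count was 7 of 10 with library totals alone, without LPS replicate 2 and without LPS + Tan replicate 2, and 10 of 10 without LPS replicate 4 or LPS + Tan replicate 3. The median was -0.069 without LPS replicate 1 and -0.13 in limma on log2(FPKM + 1). All members were measured in the same mice, so the count is a description.

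**Figure D1:**
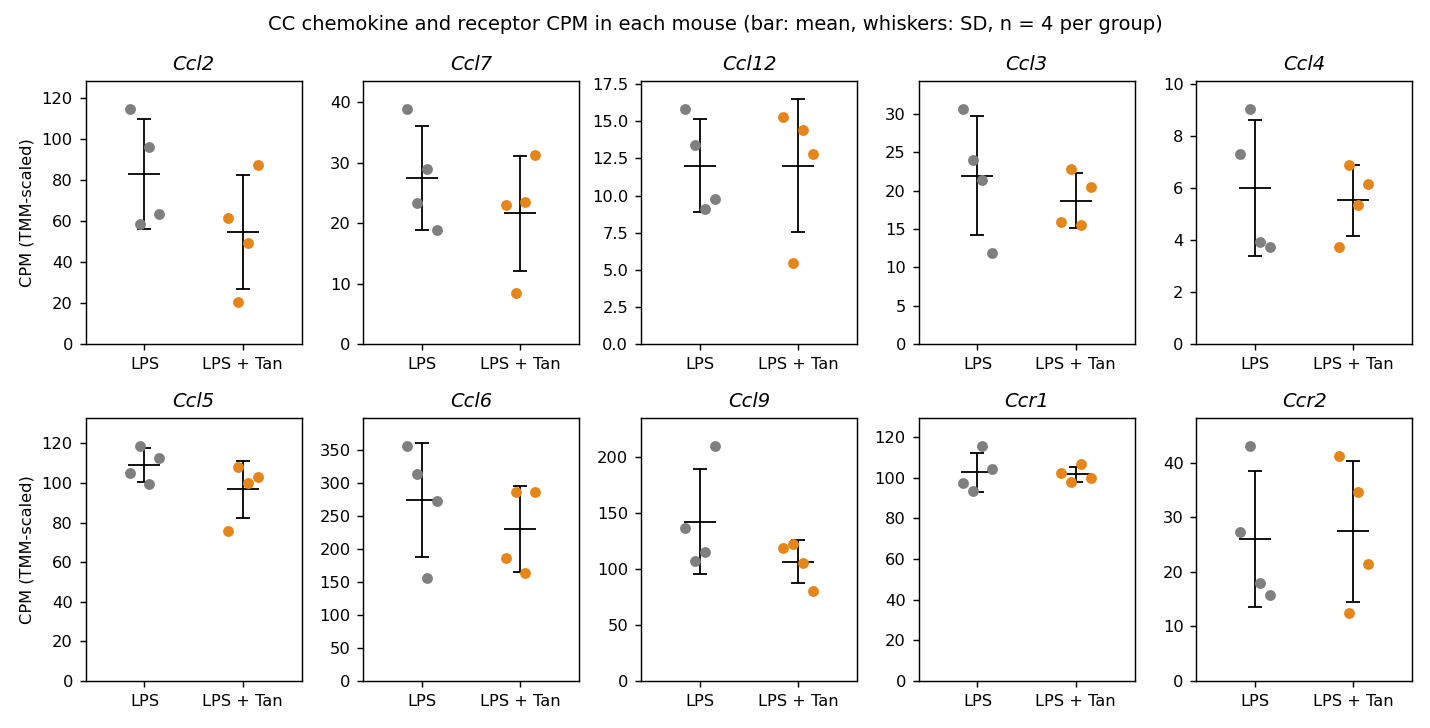
Each panel shows one gene, with TMM-scaled CPM on a vertical axis starting at 0, grey points for the 4 LPS mice and orange points for the 4 LPS + Tan mice in replicate order, the mean as a bar and the SD as whiskers. The groups overlap in all 10 panels, and Ccr1 has the narrowest spread relative to its level.

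Ccl2, the main ligand of Ccr2, had the lowest estimate of the 10. In LPS mice it stood at 114, 58.3, 96.0 and 63.3 CPM, and in LPS + Tan mice at 61.4, 20.7, 49.4 and 87.4 CPM. LPS + Tan replicate 2 was the lowest of all mice, while LPS + Tan replicate 4 lay above 2 of the LPS mice. The mean was 82.99 ± 26.8 CPM (SD, n = 4) against 54.7 ± 27.7 CPM (SD, n = 4), a log2 fold change of -0.60 (SE 0.37, 95% interval -1.43 to 0.23, edgeR unadjusted p = 0.137, adjusted p = 0.928). As a fold, the interval ran from 0.371 to 1.17 times the LPS level, so both a marked fall and a small rise fit these 8 mice. The estimate depended on single mice. Without LPS + Tan replicate 4 it was -0.92 (edgeR unadjusted p = 0.0337, adjusted p = 0.489), and without LPS + Tan replicate 2 it was -0.33 (edgeR unadjusted p = 0.240).

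Ccl7, which binds Ccr1 and Ccr2, was measured at 38.9, 23.4, 29.0 and 19.0 CPM in LPS mice and at 23.1, 8.52, 23.6 and 31.4 CPM in LPS + Tan mice. Again LPS + Tan replicate 2 was the lowest and LPS replicate 1 the highest. The means were 27.6 ± 8.59 and 21.6 ± 9.53 CPM (SD, n = 4 each), and the log2 fold change was -0.35 (SE 0.34, 95% interval -1.11 to 0.42, edgeR unadjusted p = 0.333, adjusted p = 0.965). Without LPS + Tan replicate 2 it was -0.084, without LPS replicate 1 it was -0.14, and without LPS + Tan replicate 4 it was -0.58.

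Ccl12, the third monocyte chemoattractant protein of this cluster, stood at 15.8, 13.4, 9.09 and 9.77 CPM in LPS mice and at 15.3, 5.49, 14.4 and 12.8 CPM in LPS + Tan mice. The group means were nearly equal (12.02 ± 3.15 and 12.01 ± 4.46 CPM, SD, n = 4 each), although LPS + Tan replicate 2 lay below every other mouse. The 95% interval of the log2 fold change ran from -0.66 to 0.66 (edgeR unadjusted p = 0.997, adjusted p = 0.999), which leaves room for a 0.632-fold to 1.58-fold level. The sign of the Ccl12 estimate changed with the scaling: it was 0.01 with upper-quartile scaling and 0.04 with library totals alone. It also turned without LPS replicate 1 (0.16), LPS replicate 2 (0.049) or LPS + Tan replicate 2 (0.24).

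Among the inflammatory chemokines, Ccl3 was found at 30.6, 24.0, 21.4 and 11.8 CPM in LPS mice and at 15.9, 22.8, 15.5 and 20.5 CPM in LPS + Tan mice. LPS replicate 4 was the lowest and LPS replicate 1 the highest of all, so the LPS + Tan mice fell inside the LPS range. The log2 fold change was -0.23 (SE 0.25, 95% interval -0.79 to 0.33, edgeR unadjusted p = 0.375, adjusted p = 0.966). These extremes decided its size: without LPS replicate 1 it was -0.029 (edgeR unadjusted p = 0.907), and without LPS replicate 4 it was -0.44 (edgeR unadjusted p = 0.0333, adjusted p = 0.997).

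Ccl4, a chemokine of activated macrophages and lymphocytes, was the lowest of the 8 ligands, at 7.29, 9.02, 3.92 and 3.73 CPM in LPS mice and 3.71, 6.87, 5.35 and 6.16 CPM in LPS + Tan mice. The LPS mice split into a higher and a lower pair, with most LPS + Tan mice between them. The log2 fold change of Ccl4 was -0.12 (SE 0.31, 95% interval -0.80 to 0.56, edgeR unadjusted p = 0.707, adjusted p = 0.987). Its direction turned with single mice, to 0.14 without LPS replicate 2 and 0.029 without LPS + Tan replicate 1. In RefSeq the span of Ccl4 (chr11:83648624-83664683) overlaps Ccl3 on the other strand. The strand setting of the authors' counting is not given in the sources used here, so reads from the overlap could be split between both genes.

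Ccl5, made by T cells and natural killer cells as well as macrophages, was measured at 105, 119, 99.3 and 113 CPM in LPS mice and at 75.5, 108, 100.03 and 103 CPM in LPS + Tan mice. LPS + Tan replicate 1 was the lowest and LPS replicate 2 the highest. The means were 109 ± 8.50 and 96.7 ± 14.5 CPM (SD, n = 4 each), with a log2 fold change of -0.17 (SE 0.12, 95% interval -0.43 to 0.09, edgeR unadjusted p = 0.171, adjusted p = 0.931). Without LPS + Tan replicate 1 it was -0.073 (edgeR unadjusted p = 0.445). The interval as a fold, 0.741 to 1.06, was the narrowest of the ligands. Of 17 T and NK cell markers, led by the granzyme gene Gzma (129 FPKM), 0 were called, and none was at 0 in any mouse. Their sum, mostly Gzma and Gzmb, ranged from 166 to 363 FPKM in LPS mice and from 140 to 382 FPKM in LPS + Tan mice, and it too was lowest in LPS + Tan replicate 1. The part of these cells in the Ccl5 values was not tested. In bulk tissue, fewer cells of a type and less RNA per cell cannot be told apart.

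Ccl6, a ligand of macrophages and neutrophils, had the highest CPM of the members, at 356, 314, 156 and 273 CPM in LPS mice and at 186, 286, 164 and 287 CPM in LPS + Tan mice. Replicate 3 of each group was low, and LPS replicate 3 was the lowest of the 8 mice. The means were 275 ± 86.4 and 231 ± 65.0 CPM (SD, n = 4 each), with a log2 fold change of -0.25 (SE 0.26, 95% interval -0.83 to 0.33, edgeR unadjusted p = 0.359, adjusted p = 0.966). With 1 mouse left out it ranged from -0.45 without LPS replicate 3 (edgeR unadjusted p = 0.0615) to -0.10 without LPS replicate 1 (edgeR unadjusted p = 0.721), and it was -0.12 without LPS + Tan replicate 3 and -0.16 without LPS + Tan replicate 1. Of 15 alveolar macrophage markers, led by the chitinase-like gene Chil3 (899 FPKM), 0 were called and none was at 0 in any mouse. They summed to between 879 and 1631 FPKM in LPS mice and between 969 and 1650 FPKM in LPS + Tan mice, and this sum is mostly Chil3. The 2 mice lowest in Ccl6 were also the 2 lowest in this sum, LPS replicate 3 (879 FPKM) and LPS + Tan replicate 3 (969 FPKM), and the part of alveolar macrophages in the Ccl6 values was not tested.

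Ccl9 had the smallest p of the members. LPS mice had 137, 107, 115 and 210 CPM and LPS + Tan mice 119, 122, 105 and 80.4 CPM. LPS replicate 4 was well above the others and LPS + Tan replicate 4 below them, while the other 6 mice lay between 105 and 137 CPM. The means were 142 ± 46.7 and 107 ± 19.0 CPM (SD, n = 4 each), with a log2 fold change of -0.42 (SE 0.21, 95% interval -0.89 to 0.06, edgeR unadjusted p = 0.0776, adjusted p = 0.924). One mouse decided the size: without LPS replicate 4 the log2 fold change was -0.17 (edgeR unadjusted p = 0.303). Leaving out LPS replicate 2 gave -0.53 (edgeR unadjusted p = 0.0334, adjusted p = 0.998) and leaving out LPS replicate 3 gave -0.50 (edgeR unadjusted p = 0.0494, adjusted p = 0.999).

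The receptor estimates lay close to 0. Ccr1 was measured at 97.6, 93.5, 116 and 104 CPM in LPS mice and at 103, 97.9, 107 and 99.7 CPM in LPS + Tan mice. These are the closest values of any member, with means of 103 ± 9.68 and 102 ± 3.80 CPM (SD, n = 4 each). The log2 fold change was -0.01 (SE 0.09, 95% interval -0.20 to 0.17, edgeR unadjusted p = 0.868, adjusted p = 0.998), and the fold interval of 0.869 to 1.13 bounds any difference in Ccr1 more tightly than in the other members. Its sign turned with the scaling, to 0.03 with library totals alone, and with single mice, to 0.047 without LPS replicate 3 and 0.0034 without LPS + Tan replicate 2.

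Ccr2, the receptor of inflammatory monocytes, was with Ccl2 the most variable within groups. LPS mice had 27.3, 43.1, 17.9 and 15.8 CPM, and LPS + Tan mice had 41.3, 12.4, 34.7 and 21.4 CPM. Both groups held high and low mice, with LPS replicate 2 at the top and LPS + Tan replicate 2 at the bottom. The means were 26.0 ± 12.5 and 27.4 ± 12.98 CPM (SD, n = 4 each), and the log2 fold change was 0.08 (SE 0.39, 95% interval -0.80 to 0.95, edgeR unadjusted p = 0.848, adjusted p = 0.997). It fell below 0 without LPS replicate 3 (-0.066), LPS replicate 4 (-0.10), LPS + Tan replicate 1 (-0.19) or LPS + Tan replicate 3 (-0.060), and was highest without LPS replicate 2 (0.43).

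**Figure D2:**
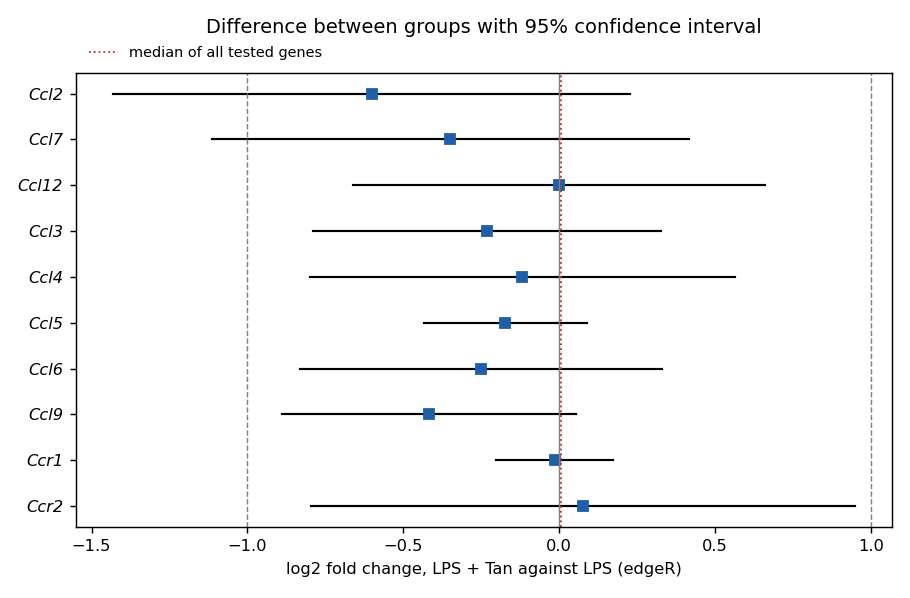
Squares give the edgeR log2 fold change of LPS + Tan against LPS for each member and lines its 95% confidence interval, with dashed lines at -1 and 1 and a dotted line at the median of all tested genes. All 10 intervals include 0, from the narrow interval of Ccr1 (-0.20 to 0.17) to the wide ones of Ccl2 and Ccr2.

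Between genes, levels are set in order by FPKM, as the mean ± SD over the 8 mice. Ccl5 (193 ± 23.5 FPKM) and Ccl6 (176 ± 50.4 FPKM) stood at the top, followed by Ccl2 (84.8 ± 34.7 FPKM). Ccl9 (41.3 ± 12.5 FPKM), Ccr1 (36.1 ± 2.45 FPKM), Ccl7 (30.6 ± 10.8 FPKM), Ccl3 (25.6 ± 7.14 FPKM) and Ccl12 (22.5 ± 6.96 FPKM) formed the middle. Ccl4 (8.72 ± 2.94 FPKM) and Ccr2 (5.70 ± 2.63 FPKM) were the lowest. The ranges of all 9 neighbouring pairs in this order overlapped. The higher gene led in 7 of 8 mice for Ccl6 over Ccl2, Ccl2 over Ccl9, Ccl12 over Ccl4 and Ccl4 over Ccr2, and in 5 or 6 of 8 for the other neighbours.

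The 8 ligands together reached 631 ± 96.8 FPKM in LPS mice and 533 ± 54.1 FPKM in LPS + Tan mice (SD, n = 4 each), with overlapping ranges of 516 to 749 FPKM and 484 to 609 FPKM. Ccl5 made up 32.4% of this sum in LPS and 34.6% in LPS + Tan mice, and Ccl6 29.4% and 30.2%. Ccl2 held 16.2% and 12.8%. The monocyte chemoattractant proteins Ccl2, Ccl7 and Ccl12 together held 25.0% ± 6.39 and 22.2% ± 9.11 (SD, n = 4 each). Their lowest share was 8.79%, in LPS + Tan replicate 2, and the other 7 mice held between 19.5% and 32.0%.

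**Figure D3:**
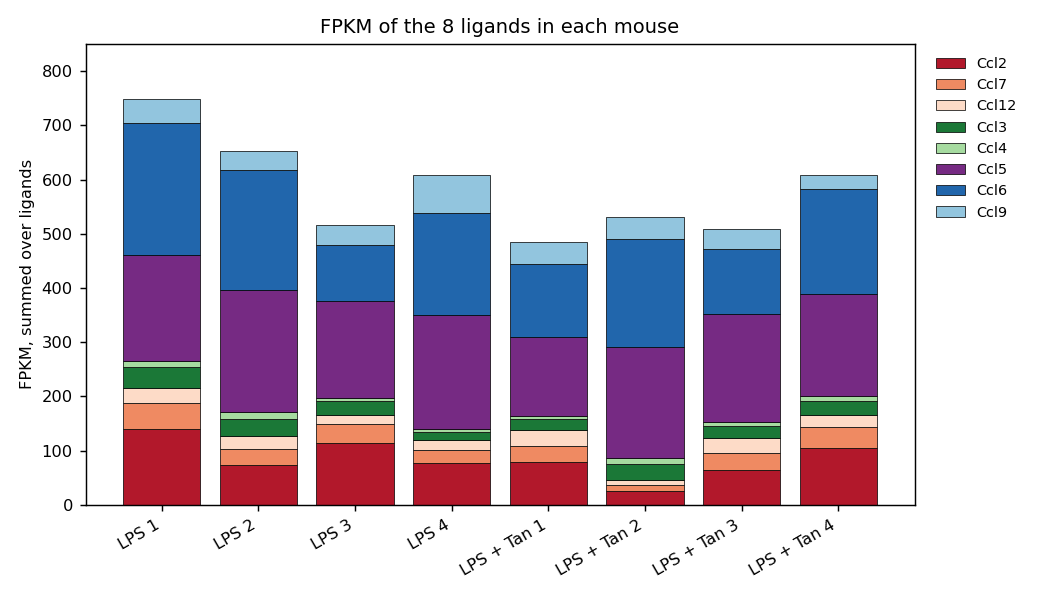
Stacked bars give the FPKM of the 8 ligands in each mouse, on an axis from 0. Ccl5 and Ccl6 fill most of every bar, and the red segments of Ccl2, Ccl7 and Ccl12 are thinnest in LPS + Tan replicate 2 (8.79% of the bar).

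The members differed in how much they varied between mice. Over all 8 mice, the highest value was 5.54 times the lowest for Ccl2, 4.56 times for Ccl7 and 3.47 times for Ccr2, but 1.57 times for Ccl5 and 1.24 times for Ccr1. The SD of log2 CPM within groups was 0.70 for Ccr2 and for Ccl2, which put both at percentile 98.6 of all tested genes (median SD 0.195). Ccl7 was at percentile 98.1, and Ccl12, Ccl4, Ccl6, Ccl3 and Ccl9 were between percentiles 95.9 and 86.0. Ccl5, at percentile 46.0, and Ccr1, at percentile 13.2, were less variable than the median gene. For the ligands with wide spread, the precision of 4 mice per group is thus low.

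**Figure D4:**
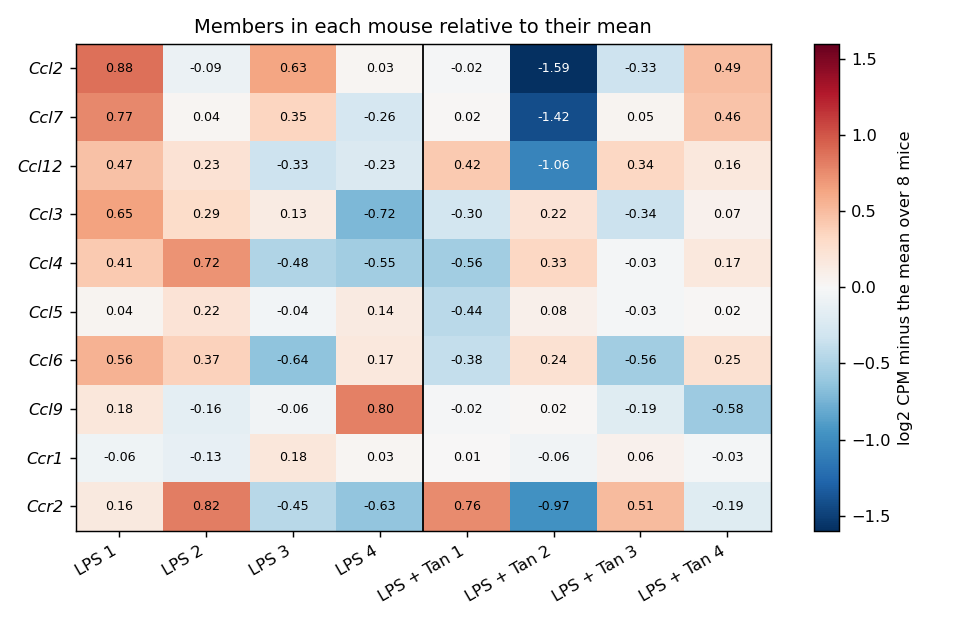
Each cell is the log2 CPM of a member in one mouse minus its mean over the 8 mice, red above and blue below, with the LPS mice left of the line. LPS + Tan replicate 2 is low in Ccl2, Ccl7, Ccl12 and Ccr2 but not in Ccl3, Ccl4, Ccl5 or Ccl6, and LPS replicate 4 is high in Ccl9.

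Which members varied together was examined over the 45 pairs, with Pearson's r and Spearman's rho of log2 CPM over 8 mice and an exact two-sided permutation test over all 40320 pairings. By Pearson's r, 6 pairs had an unadjusted p below 0.05 and 0 passed after adjustment over the 45 pairs. Ccl2 and Ccl7 were the closest pair (r = 0.958, exact permutation p = 0.00149, adjusted p = 0.0670, rho = 0.738, exact permutation p = 0.0458). With each group centred on its mean, r was 0.964, and without the 2 mice farthest from the median of Ccl2 it was 0.717. Their FPKM ratio stayed between 2.08 and 3.32 over all mice, whereas that of Ccl2 to Ccl12 ran from 2.27 to 7.02.

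The next pair was Ccl12 with Ccr2 (r = 0.846, exact permutation p = 0.00327, adjusted p = 0.0737, rho = 0.762, exact permutation p = 0.0368), and r was 0.743 without the 2 mice farthest from the median of Ccl12. Ccl6 and Ccr1 had a negative correlation (r = -0.841, exact permutation p = 0.00511, adjusted p = 0.0766, rho = -0.929, exact permutation p = 0.00223), and r was -0.608 without the 2 mice farthest from the median of Ccl6. Ccr1 spans a narrow range in this pair. These 3 pairs passed the adjusted threshold when CPM was computed on library totals alone (adjusted exact permutation p of 0.0402, 0.0446 and 0.0301, in the order given) and with log2(FPKM + 0.1), so their call depends on the scaling. Without LPS + Tan replicate 2, r was 0.847, 0.791 and -0.832.

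By Pearson's r, the other pairs under 0.05 before adjustment were Ccl4 with Ccr1 (r = -0.780, exact permutation p = 0.0176, adjusted p = 0.198, rho = -0.786, exact permutation p = 0.0279), Ccl7 with Ccl12 (r = 0.807, exact permutation p = 0.0322, adjusted p = 0.290, rho = 0.476, exact permutation p = 0.243) and Ccl3 with Ccl4 (r = 0.731, exact permutation p = 0.0397, adjusted p = 0.298, rho = 0.810, exact permutation p = 0.0218). Without the 2 mice farthest from the median on the first gene, r was -0.802 for Ccl4 with Ccr1 and 0.627 for Ccl3 with Ccl4. The relation of Ccl7 with Ccl12 rests on those mice, since r fell to -0.03 without them and was 0.306 without LPS + Tan replicate 2 alone. By Spearman's rho alone, Ccl4 with Ccl6 was also under 0.05 (rho = 0.762, exact permutation p = 0.0368, adjusted p = 0.331, r = 0.681, exact permutation p = 0.0695). No pair passed by rho after adjustment. Of the 45 pairs, 23 had an r above 0.

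**Figure D5:**
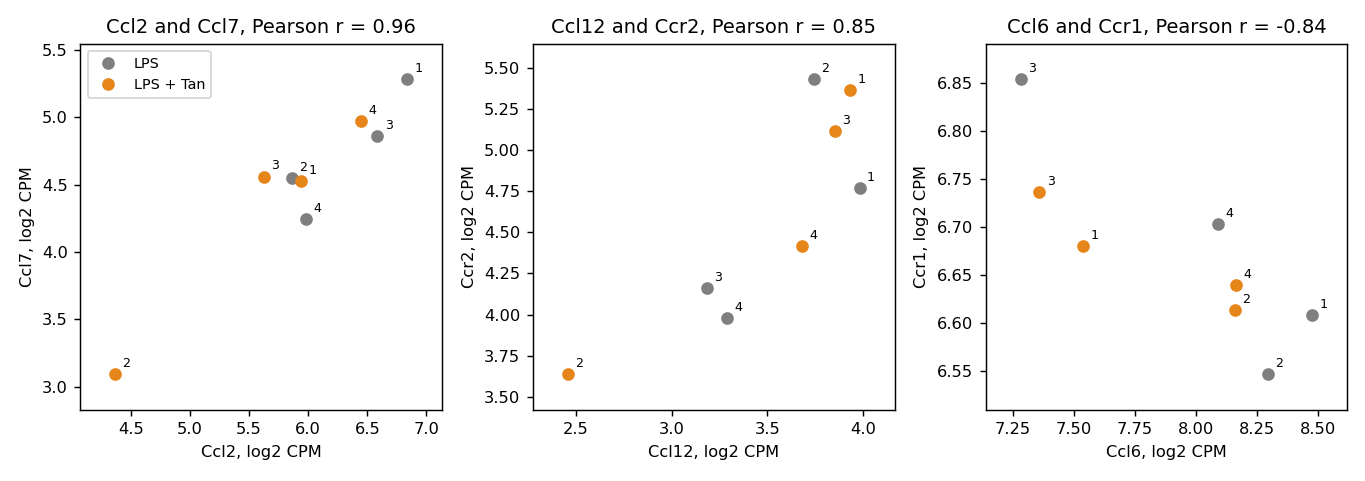
Points are single mice, numbered by replicate, grey for LPS and orange for LPS + Tan, with log2 CPM on both axes. Ccl2 and Ccl7 (r = 0.958) and Ccl12 and Ccr2 (r = 0.846) lie along rising lines that end in LPS + Tan replicate 2 at the bottom left, while Ccl6 and Ccr1 (r = -0.841) fall from left to right over a narrow range of Ccr1.

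Outside the members, the gene with the highest Pearson r over the 8 mice was named for 9 of the 10, among 11245 genes with a mean of 5 CPM or more. For Ccl2 it was Atp5g1 (r = 0.973) and for Ccl7 it was Rbis (r = 0.976). The others were Zfp931 for Ccl12 (r = 0.976), Noct for Ccl3 (r = 0.947), Ctla2b for Ccl4 (r = 0.951), Lias for Ccl5 (r = 0.965), Phf10 for Ccl6 (r = 0.965), Kdm4c for Ccl9 (r = 0.943) and Sfxn5 for Ccr1 (r = 0.936). The best of many genes over 8 mice is high by choice, and these values are a description. Ccl7 ranked 3 among all genes by likeness to Ccl2, and Ccl2 ranked 4 by likeness to Ccl7.

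Of the other CC chemokine ligands, 12 of 13 listed were in the tables and 11 were tested. None was higher and 3 were lower in LPS + Tan mice at an unadjusted edgeR p below 0.05, beside 2.25% of all genes, and the median log2 fold change of the 11 was -0.19, against 0.01 for all genes. None of the 3 passed after adjustment over all genes in edgeR's quasi-likelihood test, whereas Ccl20 and Ccl22 passed in DESeq2 (adjusted p = 0.00239 and 0.0270) and in edgeR's likelihood ratio test (adjusted p = 0.0111 and 0.0498). Ccl8, another monocyte chemoattractant protein and a neighbour of Ccl12 on chromosome 11, was at 15.3, 3.52, 11.9 and 13.4 CPM in LPS mice and at 3.35, 2.29, 5.27 and 6.89 CPM in LPS + Tan mice. LPS replicate 2 was as low as the LPS + Tan mice, so the groups overlapped. The log2 fold change of Ccl8 was -1.31 (SE 0.44, edgeR unadjusted p = 0.0144, adjusted p = 0.924).

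Ccl20, which attracts Ccr6-bearing lymphocytes and dendritic cells, was at 10.1, 13.7, 6.17 and 5.44 CPM in LPS mice and at 2.61, 2.82, 3.60 and 4.24 CPM in LPS + Tan mice. Every LPS + Tan mouse was below every LPS mouse (log2 fold change -1.42, SE 0.30, edgeR unadjusted p = 0.000788, adjusted p = 0.688). Ccl22, a Ccr4 ligand of dendritic cells and macrophages, was at 45.6, 75.3, 62.8 and 45.1 CPM in LPS mice and at 31.9, 18.9, 26.2 and 39.9 CPM in LPS + Tan mice. These groups did not overlap either (log2 fold change -0.97, SE 0.23, edgeR unadjusted p = 0.00201, adjusted p = 0.850). The highest of the other ligands was Ccl21a, a lymphatic chemokine (45.4 FPKM, log2 fold change -0.04, edgeR unadjusted p = 0.891).

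The remaining chemokine pathway lists held no gene called at an unadjusted edgeR p below 0.05, beside 5.12% of all tested genes. Of the other CC receptors and atypical receptors, 7 of 11 in the tables were tested and 0 were called (median log2 fold change -0.07), with Ccrl2, which binds chemerin, the highest (54.8 FPKM). Of 25 signalling genes below chemokine receptors, 0 were called (median 0.08), with the G protein subunit gene Gnai2 at 400.3 FPKM. Of 23 adhesion, growth factor and fractalkine genes of monocyte traffic, 0 were called (median 0.02), with the adhesion gene Icam1 the highest at 445 FPKM. The medians stand beside 0.01 over all tested genes.

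Markers of the cells that make or respond to these chemokines are read beside the 5.12% of all tested genes called at an unadjusted edgeR p below 0.05. Of 15 monocyte markers, a list that includes Ccr2 and is led by Cd14 (239 FPKM), 0 were called and none was at 0 in any mouse. They summed to between 761 and 925 FPKM in LPS mice and between 767 and 1002 FPKM in LPS + Tan mice. Of 15 neutrophil markers, led by Lcn2 (5475 FPKM), 0 were called, and the sums were 13057 to 17713 FPKM and 13328 to 14745 FPKM. Of 14 interstitial macrophage markers, led by Lyve1 (756 FPKM), the complement gene C1qa (log2 fold change 0.28) and the haemoglobin scavenger receptor gene Cd163 (0.53) passed an unadjusted edgeR p below 0.05, both upwards, and 3 of the 14 estimates were below 0 (median 0.12). The sums of 1012 to 1471 FPKM and 833 to 1145 FPKM are mostly Lyve1, whose log2 fold change was -0.51 (edgeR unadjusted p = 0.0509). Of 8 dendritic cell markers tested, Ccl22 and Fscn1 (-0.33, the highest of the list at 34.5 FPKM) were lower, and the other 6 were not called. In all, 4 of the 8 estimates were below 0, with a median log2 fold change of -0.018. The list's sums of 76.3 to 106 FPKM and 59.4 to 71.1 FPKM did not overlap, but they are mostly Ccl22 and Fscn1 and so add nothing to those 2 calls, and Xcr1 and Cd209a were at 0 in at least 1 mouse. Of 10 platelet markers, led by Pf4 (11.6 FPKM), the CXC chemokine gene Ppbp (-0.68) was lower, with 7 of the 10 estimates below 0 and a median of -0.24, and of 10 endothelial markers, led by Cldn5 (415 FPKM), Tek (0.51) and Kdr (0.37) were higher, with 5 of the 10 endothelial estimates below 0 and a median of 0.0034. The calls of Tek, Kdr and Cd163 were lost in 6, 5 and 4 of the 8 fits with 1 mouse left out. None of these genes passed after adjustment over all genes in edgeR's quasi-likelihood test. No B cell (8 tested, led by Cd79b at 7.42 FPKM, 7 estimates below 0, median log2 fold change -0.20), erythroid (8, Hbb-bs at 2080 FPKM), epithelial (12) or fibroblast (8, Col3a1 at 133 FPKM) marker was called, although all 8 erythroid estimates were below 0 (median log2 fold change -0.37). The part of any of these cells in the members' values was not tested.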

How the data were processed

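Lung RNA of 8 mice was sequenced on an Illumina instrument. The study's methods name TRIzol extraction and a VAHTS library kit, whereas the labels name a column kit and another library kit. Reads were assigned by the authors to GRCm38 (mm10), per the submitters' processing notes. The aligner, counter, annotation and strand setting are not named by these sources. The authors deposited raw read counts per gene and FPKM per gene for all samples, which were matched to samples by the descriptions in the labels, with 0 sample columns left unmatched.

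Counts were filtered with filterByExpr (15706 of 24584 genes kept), scaled by TMM and tested with edgeR 4.0.16 (quasi-likelihood, R 4.3.3), LPS + Tan against LPS, with Benjamini-Hochberg adjustment over all tested genes. SE is the absolute log2 fold change over the square root of F, and intervals are 95%. The thresholds were an unadjusted p of 0.05, also with an absolute log2 fold change above 1 as in the study, and an adjusted p of 0.05. On data simulated from this comparison, 200 genes were changed by a set fold. At a Benjamini-Hochberg adjusted p below 0.05, 62.5% of those changed 2-fold (15524 genes tested) were recovered. For a 3-fold change it was 85.0% (15526 genes tested). Alternatives used DESeq2 1.42.0, limma 3.58.1, other scalings, filters and pseudocounts, a replicate block and each mouse left out. Mice of the same group differed by 9.16 to 32.1 times the sampling noise, so none was a repeat of another in its group. Mice of different groups were not compared in this way. Positions are from GENCODE M21 and promoters from RefSeq. Named genes were all members, called genes and the highest gene of each list, and each member's nearest gene, of which that of Ccr2 is not reported here. The members and lists were chosen with earlier results of these data known.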

Additional observations from a re-analysis of the deposited data

How the results depend on the processing

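The number of members with an unadjusted p below 0.05 moved from 0 to 1 without a filter on low counts (Ccl9, edgeR unadjusted p = 0.0461) and with the replicate block (Ccl2, log2 fold change -0.73, edgeR unadjusted p = 0.0357), and ranged from 0 to 1 with 1 mouse left out. It was 1 without LPS replicate 2 or LPS replicate 3 (Ccl9 in both), without LPS replicate 4 (Ccl3) and without LPS + Tan replicate 4 (Ccl2), and 0 under the other alternatives. The counts at the study's thresholds and at an adjusted p below 0.05, and of members whose groups do not overlap, were 0 under every alternative run. The block was not the design: mice with the same number deviated with correlations of 0.164, -0.050, -0.165 and 0.044, and 1 of 4 matched its own number best.

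The number of correlated pairs moved from 0 to 3 with CPM on library totals alone and with log2(FPKM + 0.1). With each mouse left out, which was added after seeing the data, it ranged from 0 to 3, with 3 without LPS replicate 4 (Ccl2 with Ccl7, Ccl6 with Ccr1, and Ccl4 with Ccl5, while Ccl12 with Ccr2 did not pass).

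Estimates near 0 changed sign. Ccl12 was 0.010 with upper-quartile scaling, 0.043 with library totals, and -0.14 to 0.24 with 1 mouse left out. Ccr1 was 0.031 with library totals and with log2(FPKM + 0.1), 0.030 with log2(FPKM + 1) of the tested or of all genes, and -0.062 to 0.047 with 1 mouse left out. With 1 mouse left out, Ccl4 ranged from -0.29 to 0.14 and Ccr2 from -0.19 to 0.43. The cause was not tested. Ccl2, Ccl3, Ccl5, Ccl6, Ccl7 and Ccl9 stayed below 0 under all alternatives. Of the genes called outside the members, Tek kept its unadjusted call in 2 of the 8 fits with 1 mouse left out, Kdr in 3 and Cd163 in 4. In the 12 other alternatives, Tek kept it in 8, Kdr in 11 and Cd163 in 11. Tek lost its call in limma-voom and in all fits on FPKM, and Kdr with the replicate block. Cd163 and Ccl8 lost theirs with log2(FPKM + 1) of all genes. The calls of C1qa, Ccl20, Ccl22, Fscn1 and Ppbp were kept under all.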
